A study of Homo sapiens with 3 samples.

Results

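The IFIT genes encode interferon-induced proteins with tetratricopeptide repeats, and 4 of them, IFIT1, IFIT2, IFIT3 and IFIT5, were followed here in KYSE180 cells, a human line of oesophageal squamous cell carcinoma. They were found as every probe set annotated with exactly 1 of these symbols, which gave 6 of the 49293 probe sets on the array and 4 of 18132 genes. IFIT2 and IFIT5 had 2 probe sets each, and IFIT1 and IFIT3 had 1. Expression was measured on 3 oligonucleotide arrays, 1 per group, from total RNA of bulk cultures. The groups were control KYSE180 cells, KYSE180 cells transfected with the LZRS_HOTAIR vector by Polyfect, and KYSE180 cells given 100 pmol of a mixture of Stealth siRNAs against HOTAIR by Lipofectamine2000, with RNA taken 48 h after transfection. HOTAIR is a long non-coding RNA. The labels do not say whether the control cells received a reagent, an empty vector or a negative-control siRNA, and 0 probe sets were annotated to HOTAIR, and its level is not reported. The source name of the siRNA sample speaks of a HOTAIR cell line, whereas its title and cell line field give KYSE180, which was used. Since each group is 1 array, differences have no replicate check and carry no p-value.

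IFIT proteins have no known enzymatic activity and act by binding RNA and other proteins. IFIT1 binds messenger RNA whose cap lacks ribose methylation, as on some viral RNA, and keeps it from the translation machinery. IFIT2 and IFIT3 form complexes with IFIT1, and IFIT3 stabilises IFIT1 and raises its binding to such caps. IFIT5 acts largely alone and binds RNA with a triphosphate end. The genes are switched on when the transcription factor complex ISGF3 or IRF family members activated by RNA sensors bind the interferon-stimulated response element (ISRE) in their promoters.

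The promoter sequences are shown because the response element in them is what the family is known to share. RefSeq promoter windows, from 250 bases before to 50 bases after an annotated start on GRCh38.p14, were found for 3 of the 4 genes in 4 windows, all on the plus strand of chromosome 10. Capitals mark matches to the ISRE core, taken as GAAA, any 2 bases and GAAA again, on either strand.
IFIT1, chr10:89392373-89392672: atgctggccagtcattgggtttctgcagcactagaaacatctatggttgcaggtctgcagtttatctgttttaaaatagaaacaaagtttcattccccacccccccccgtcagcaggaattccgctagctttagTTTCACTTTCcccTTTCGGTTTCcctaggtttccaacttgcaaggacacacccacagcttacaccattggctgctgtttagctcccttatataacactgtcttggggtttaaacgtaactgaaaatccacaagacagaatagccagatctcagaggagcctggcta
IFIT3 (upstream start), chr10:89327747-89328046: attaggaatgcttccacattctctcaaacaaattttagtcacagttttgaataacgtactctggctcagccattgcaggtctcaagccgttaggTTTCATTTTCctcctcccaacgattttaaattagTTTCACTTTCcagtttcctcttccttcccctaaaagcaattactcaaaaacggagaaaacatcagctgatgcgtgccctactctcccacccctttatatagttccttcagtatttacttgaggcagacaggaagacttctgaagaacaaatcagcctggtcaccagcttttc
IFIT3 (downstream start), chr10:89332279-89332578: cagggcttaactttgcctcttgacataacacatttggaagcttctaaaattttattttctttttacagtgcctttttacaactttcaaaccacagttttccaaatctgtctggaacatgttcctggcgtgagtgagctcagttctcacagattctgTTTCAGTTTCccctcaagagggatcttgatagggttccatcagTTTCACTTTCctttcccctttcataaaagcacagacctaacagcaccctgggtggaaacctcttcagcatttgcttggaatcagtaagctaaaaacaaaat
IFIT5, chr10:89414318-89414617: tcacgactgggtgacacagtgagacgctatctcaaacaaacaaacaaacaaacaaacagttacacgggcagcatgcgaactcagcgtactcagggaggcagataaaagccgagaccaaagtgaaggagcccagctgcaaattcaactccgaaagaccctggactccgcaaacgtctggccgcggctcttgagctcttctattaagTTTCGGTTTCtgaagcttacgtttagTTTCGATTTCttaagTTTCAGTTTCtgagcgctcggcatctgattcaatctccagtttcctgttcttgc

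All matches in these windows lay on the minus strand, so they read TTTC, 2 bases and TTTC above. IFIT1 had 2 core matches, the nearest bases of which were 107 and 94 bases upstream of the start. Each IFIT3 window also had 2, ending 147 and 113 bases upstream of the one start and 85 and 42 bases upstream of the other. IFIT5 had 3, closer to its start, with the first running from 45 to 36 bases upstream, the next from 19 to 10, and the last across the start itself. Of 35116 promoter windows of this length, 3.57% held at least 1 core match, 0.259% at least 2 and 0.0370% at least 3. The extended form, the core followed by CT, occurred once in IFIT1 and once in each IFIT3 window and coincided with all 3 core matches in IFIT5. It occurred in 0.273% of windows, and only 2 windows, those of IFIT5 and of the antiviral gene IFI6, held 3. The gamma-interferon element TTCNNNGAA, which reads the same on both strands and was present in 7.66% of windows, had 0 matches in the 4 windows. The map of matches shows how their place differs between the genes.

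**Figure D1:**
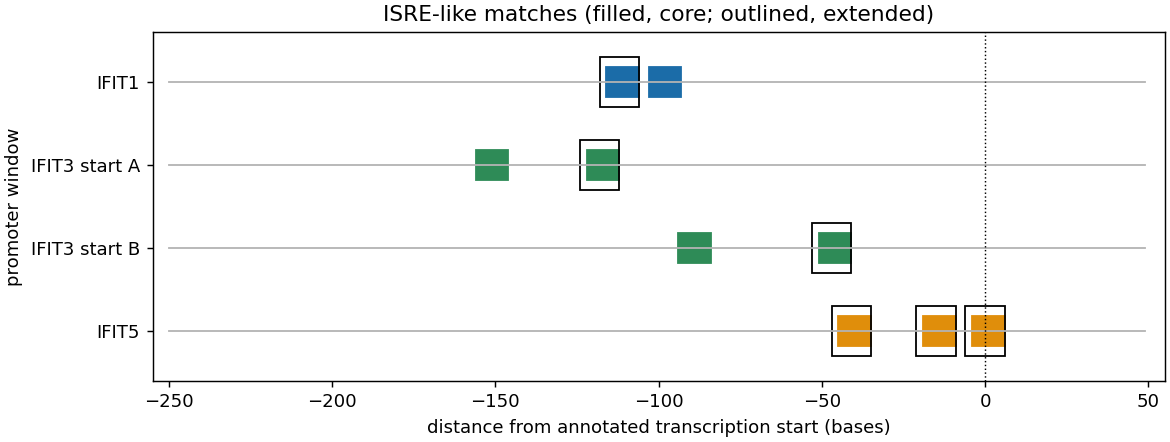
Matches to the ISRE core (filled) and its extended form (outlined) in 4 RefSeq promoter windows, by distance in bases from the annotated start (dotted line). IFIT1 and IFIT3 have 2 core matches per window, all upstream of the start, while IFIT5 has 3, within 45 bases upstream of it and across it.

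All 4 IFIT genes were highest in HOTAIR vector cells, on all 6 probe sets. Against control they were 9.97-fold (IFIT2) to 27.3-fold (IFIT3) higher by the brightest probe set of each gene. In siRNA cells only IFIT5 was past 2-fold above control. Signals below are log2 probe set signals, and a gene is represented by its brightest probe set on average. The only spread at hand was how far probe sets of the same gene differ, pooled over 5982 genes with several. Such probe sets read the same RNA on the same arrays, so this SD holds no variation between cultures, transfections or arrays. This SD was 0.36 (log2) for vector minus control. It was 0.39 for siRNA minus control and 0.21 between the arms. In bulk RNA a higher level in every cell and a high level in some of the cells cannot be told apart.

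IFIT1, the cap-binding member, had a signal of 8.56 in control cells, 12.11 with the vector and 8.87 with the siRNAs. The vector array stood apart, with vector minus control at 3.54 (11.6-fold) and siRNA minus control at 0.30. Over the alternative processing described below, the latter was 0.19 to 0.47. The pooled SD of 0.39 between probe sets holds no variation between arrays, so it cannot show that 0.30 is no difference.

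IFIT2, a partner of IFIT1 and IFIT3, had 5.99 in control cells, 9.30 with the vector and 6.91 with the siRNAs on its brighter probe set. Its other probe set was dim, with 3.74, 5.60 and 4.19 in the same order, and on the control array it lay at percentile 25.4 of all probe sets. Both gave the same order, vector above siRNA above control, but not the same size. Vector minus control was 3.32 on the brighter and 1.86 on the dim probe set, a gap of 1.46 that is well over the pooled spread of 0.36. The siRNA minus control values were 0.92 and 0.45.

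IFIT3, which stabilises IFIT1, had 6.06 in control cells, 10.83 with the vector and 6.55 with the siRNAs. Its vector minus control difference of 4.77 was the largest in the family, and siRNA minus control was 0.49. This rests on a single probe set with a name ending in _x_at, which marks probes that may bind related transcripts, so the size has no check on another probe set. Its level relative to its paralogues cannot be read from the array.

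IFIT5, the triphosphate-binding member, had 5.34 in control cells, 8.89 with the vector and 7.22 with the siRNAs on one probe set and 5.52, 8.53 and 7.12 on the other. Here the siRNA array lay near the middle of the other two on both probe sets. Vector minus control was 3.55 and 3.01, and siRNA minus control 1.88 (3.68-fold) and 1.60 (3.02-fold). On the log2 scale siRNA cells covered 52.9% and 53.1% of the difference between control and vector, against 8.50% for IFIT1, 10.3% for IFIT3 and 27.7% and 24.1% for IFIT2. The lower IFIT5 value in siRNA minus control exceeded the highest of the other members by 0.68. The pooled SD of 0.39 is for single probe sets, not for a gap between 2, and holds no variation between arrays. Whether IFIT5 stands apart beyond such variation was not tested.

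**Figure D2:**
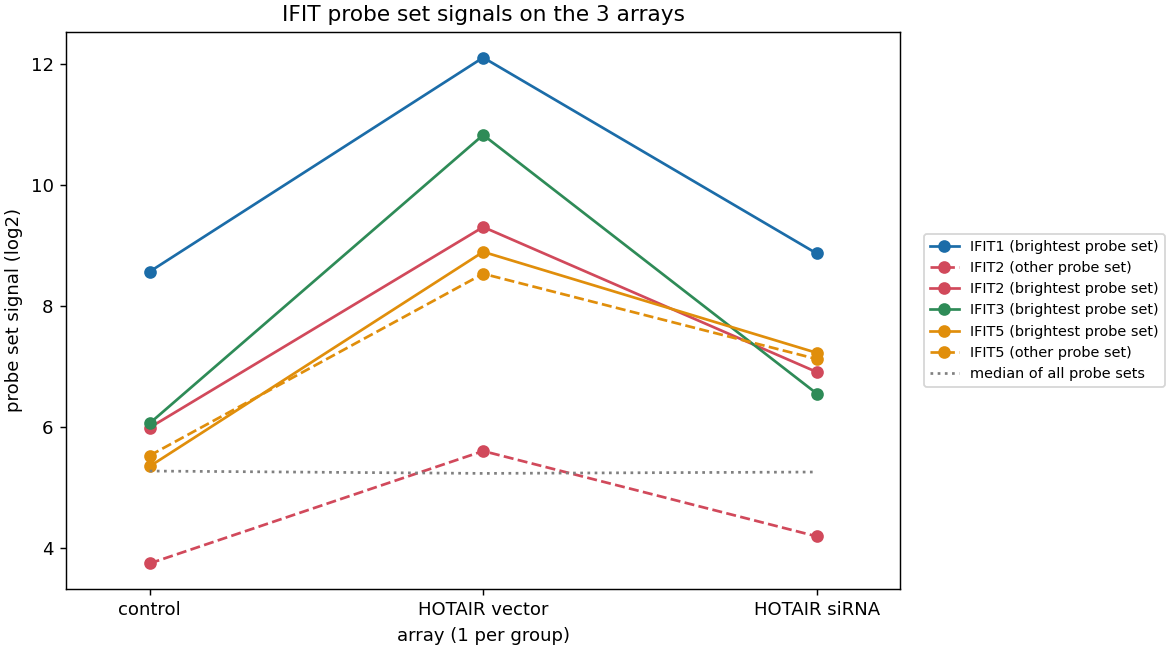
Log2 signals of the 6 IFIT probe sets on the 3 arrays, 1 array per group, with solid lines for the brightest probe set of a gene and dashed lines for the other. Every probe set peaks on the vector array. The IFIT5 probe sets keep the largest share of the log2 difference on the siRNA array (7.22 and 7.12 against 5.34 and 5.52 in control). Signals of different probe sets are not comparable in height.

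The first comparison asked how the family differed between vector and control cells. At 2-fold, 4 of 4 IFIT genes were higher and 0 lower, with a median of 3.54 (log2), where 15.2% of the 10917 genes above the filter on dim signals were higher, 2.05% were lower and the median of all genes was -0.18. All 4 passed the filter, and their representing probe sets lay above its level of 5.28 on every array, the control included. Ranked by this difference among all genes kept, IFIT3 was at place 5, IFIT5 at 45, IFIT1 at 46 and IFIT2 at 76. By probe set, 6 of 6 were at least 2-fold higher, against 10.2% of 44988 probe sets with 1 symbol.

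For siRNA minus control, 1 of 4 IFIT genes, IFIT5, was at least 2-fold higher and 0 lower, where 14.9% of all genes kept were higher and 1.85% lower. By probe set, 2 of 6 were higher, both of IFIT5, against 9.53% of all. The median of the 4 was 0.71, with -0.17 for all genes. IFIT5 was at place 518 of 10917, IFIT2 at 1779, IFIT3 at 2736 and IFIT1 at 3307. The siRNA array thus held many genes further above control than any IFIT gene. IFIT2 was past 2-fold as well (1.09) once the overall median was subtracted, which makes the count 2. Both comparisons share the control array, and 12.7% of all genes kept were at least 2-fold above it in both arms, as IFIT5 was. What the state of the control array contributes to IFIT5 was not tested.

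Vector and siRNA cells differed in the nucleic acid given and in the reagent, Polyfect or Lipofectamine2000, as well as in the intended effect on HOTAIR. What each of these contributes cannot be told apart. Vector minus siRNA, which leaves out the control array, gave 4 of 4 genes at least 2-fold higher, where 1.73% of all genes kept were higher and 1.85% lower. By probe set, 6 of 6 were higher, against 1.24% of all. IFIT3 differed by 4.28 (19.4-fold, place 4 of 10917), IFIT1 by 3.24 (9.45-fold, place 12), IFIT2 by 2.40 (5.27-fold, place 26) and IFIT5 by 1.67 (3.18-fold, place 60). The median was 2.82, with 0.01 for all genes. On the other probe sets IFIT2 was at 1.41 and IFIT5 at 1.41, so the order of these 2 genes is not settled by their probe sets. The histograms of all genes show the family in the upper tail for vector minus control and for vector minus siRNA. For siRNA minus control the 4 genes were at places 518 to 3307 of 10917, all above the median of all genes.

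**Figure D3:**
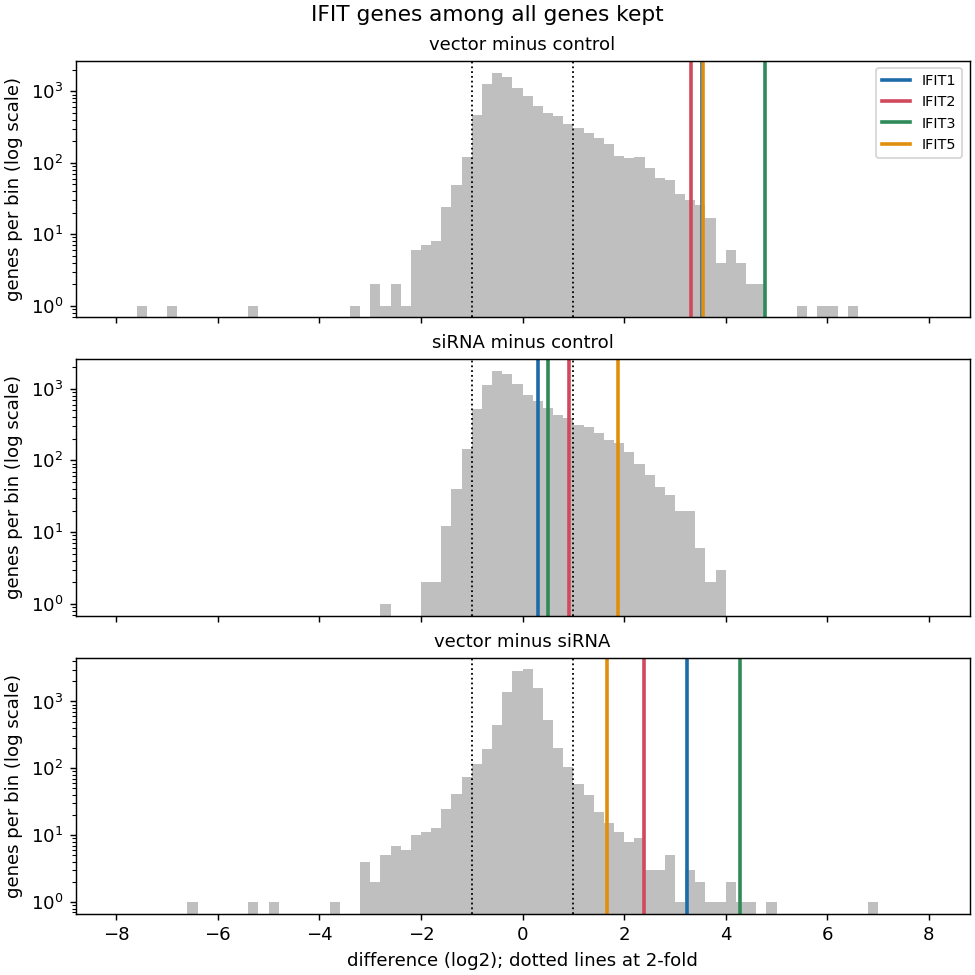
Histograms of log2 differences over the 10917 genes kept (grey, log axis of genes per bin), with the 4 IFIT genes as coloured lines and dotted lines at 2-fold. IFIT genes lie at 3.32 to 4.77 in the top panel (vector minus control), 0.30 to 1.88 in the middle one (siRNA minus control) and 1.67 to 4.28 at the bottom (vector minus siRNA).

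Genes of the pathway around the IFITs were then described from 8 lists of 97 genes, of which 69 were kept. Among RNA sensors and the adaptors that lead to interferon, 4 of 8 were 2-fold or more above control in vector cells, against 15.2% of all genes kept, and 0 were below. These were RIGI (4.66), the sensor of triphosphorylated RNA, IFIH1 (3.30), the sensor of long double-stranded RNA, their relative DHX58 (1.84) and the kinase gene TBK1 (3.43). In siRNA cells 3 of 8 were higher, against 14.9% of all genes kept, TBK1 by 3.31, RIGI by 1.81 and IFIH1 by 1.25. TBK1 thus stood as high in both arms, while RIGI and IFIH1 were lower in siRNA than in vector cells by 2.85 and 2.05. With the mean over probe sets IFIH1 was at 0.66 for siRNA minus control. The adaptor gene MAVS (-0.60 and -0.53) and the factor gene IRF3 (-0.59 and -0.57) did not reach 2-fold in either arm.

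The ligands themselves were dim. IFNB1, the interferon-beta gene, had signals of 3.35 in control cells, 3.27 with the vector and 3.21 with the siRNAs, and IFNL1 had 3.71, 3.83 and 3.54, against array medians of 5.27, 5.23 and 5.25. IFNE and IFNK were likewise below the filter. Of the 4 receptor genes kept, 0 were past 2-fold, with IFNAR1 at 0.83 for vector minus control (1.01 after centring) and 0.57 for siRNA minus control. Of 4 genes for the JAK kinases, IRF9 and IRF1, only IRF9, the DNA-binding part of ISGF3, was past 2-fold between vector and control cells, with signals of 8.85, 10.56 and 8.38 on the control, vector and siRNA arrays. IRF1 was 1.28 higher in vector than in siRNA cells, on signals of 6.45 and 5.17. Of 3 feedback inhibitor genes kept, 0 were past 2-fold in any comparison, with PTPN2 at 0.49 and PTPN6 at -0.44 for vector minus control. Over all genes kept, 15.2% were at least 2-fold above control in vector cells and 14.9% in siRNA cells. For vector minus siRNA the share was 1.73%.

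Genes for what the IFITs compete with at the cap were also listed. Of 5 genes of cap synthesis and methylation, 2 were at least 2-fold higher than control in each arm, the ribose methyltransferase gene CMTR2 (2.55 in vector and 2.30 in siRNA cells) and the capping enzyme gene RNGTT (1.65 and 1.33). RNGTT was at 0.29 and 0.17 without probe sets ending in _x_at or _s_at. CMTR1, the other ribose methyltransferase gene, was at 0.11 and -0.41. Of 13 genes for the cap-binding protein and eIF3 subunits, 2 were higher in each arm, EIF4E (1.30 and 1.26) and EIF3E (2.01 and 2.12), and 0 were lower. A count of 2 of 13 is near the share of all genes kept (15.2% in vector and 14.9% in siRNA cells), and the count for the cap-binding and eIF3 genes was 0 in each arm without probe sets ending in _x_at or _s_at. In vector minus siRNA, 0 of these 18 cap genes were past 2-fold. Over all genes kept 1.73% were higher and 1.85% lower, so this count is near the background as well.

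Other interferon-stimulated antiviral effectors gave the closest setting for the family. Of 28 kept, 22 were higher than control by 2-fold or more in vector cells and 4 in siRNA cells, and 22 were higher in vector than siRNA cells, with 0 lower in each comparison. Over all genes kept the shares were 15.2%, 14.9% and 1.73% in the same order, so the siRNA count is near the background. Their medians were 2.47, -0.02 and 2.26. For vector minus control IFIT3 was above 24 of the 28, IFIT1 and IFIT5 above 20 each and IFIT2 above 18. For siRNA minus control IFIT5 was above 26 of them, and only SAMD9 (2.90) and IFI44 (2.51) were higher. For vector minus siRNA IFIT3 was above 27 of the 28 and IFIT5 above 10. Within this set IFIT5 therefore stood near the top in siRNA minus control and in the lower part in vector minus siRNA. The filter was on the mean over all arrays, so a gene could pass through the arrays where it was high. Control signals of IFI44, SAMD9, SAMD9L, DDX60 and DDX60L lay below the filter level, at 4.13 (DDX60L) to 5.07 (IFI44). SAMD9L was above it on the vector array alone. The list was also chosen with earlier results of these data known, so its counts beside the shares of all genes are a description.

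The genes with the most similar profiles were found by the Euclidean distance between log2 signals over the 3 arrays, each gene centred on its own mean. The 5 nearest to IFIT1 were HERC6, OAS1, CMPK2, MX1 and HERC5, at distances of 0.11 to 0.43, and all 5 were among the listed effectors. CMPK2 depended on its probe sets, at 1.30 for vector minus control with their mean against 3.76 on the brightest. Nearest to IFIT2 were DDX60L, HERC5, IFIH1, ANXA3 and PARP9 (0.18 to 0.34), and 4 of these 5 were in the lists. IFIT3 was more isolated, with IFI6, OAS1, CMPK2, MX1 and S100A9 at 0.59 to 0.93, and 4 of these were in the lists. Nearest to IFIT5 were IFT74, SLC9A2, EEA1, SLC2A13 and ZNF292 (0.15 to 0.28), and 0 of these 5 were in the lists. All 5 were at least 2-fold above control in both arms, by 3.27 to 3.55 in vector and 1.48 to 2.10 in siRNA cells. Their control signals were all below the filter level, the lowest at 3.73 (SLC2A13), whereas that of IFIT5 was 5.34. These genes thus passed the filter through the vector and siRNA arrays, and their differences start from dim control signals. Beside IFIT2 the control signals of DDX60L (4.13) and ANXA3 (3.75) were below that level as well. Among family members, IFIT1 and IFIT2 were closest (0.62) and IFIT3 and IFIT5 farthest apart (1.84). Within the family IFIT5 was nearest to IFIT2 (0.71). For IFIT5, 67 genes lay nearer than IFIT2, 528 nearer than IFIT1 and 1621 nearer than IFIT3. With 3 arrays many genes share a profile by the shape alone, so nearness is a description.

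**Figure D4:**
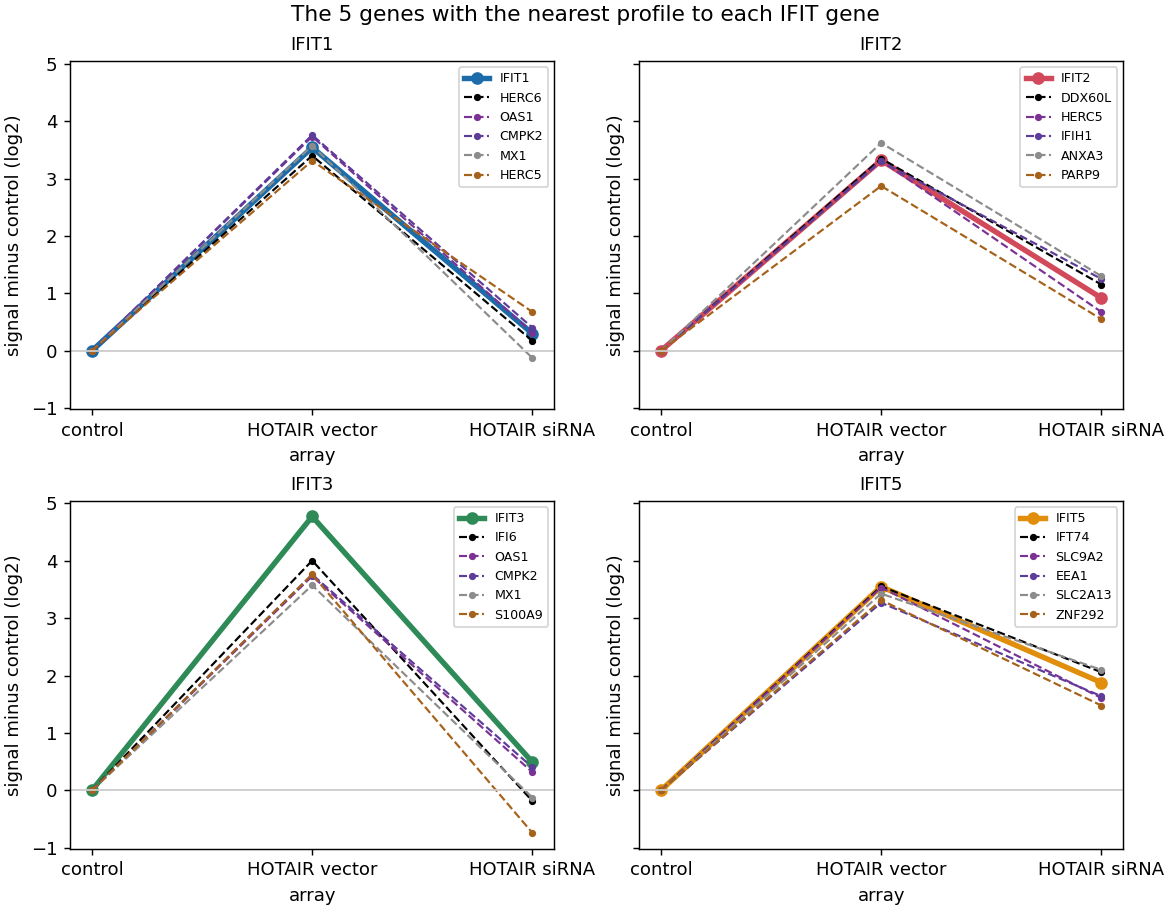
Log2 signals minus the control signal for each IFIT gene (thick line) and the 5 genes with the nearest profile (thin dashed lines), 1 array per group. The genes beside IFIT1, IFIT2 and IFIT3 fall to between -0.74 and 1.30 on the siRNA array, and those beside IFIT5 stay at 1.48 to 2.10. The genes were chosen on these same signals, so their likeness to the member is built in.

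The promoter matches were set beside the differences over the 9065 genes kept that had a promoter window. Leaving out the IFIT genes, 326 had a core match, of which 23.6% were 2-fold or more above control in vector cells, 19.3% above control in siRNA cells and 8.28% higher in vector than siRNA cells. Among the 8736 genes without a core match the shares were 15.2%, 15.1% and 1.39%. The rarer extended match gave a larger contrast. It was present in 31 genes besides the IFITs, and 20 of them (64.5%) were 2-fold or more above control in vector cells, 8 (25.8%) above control in siRNA cells and 15 (48.4%) higher in vector than siRNA cells. Among the 9031 genes without an extended match the shares were 15.4%, 15.3% and 1.47%. IFI6, with 3 extended matches as in IFIT5, was 16.0-fold higher in vector than control cells and at -0.19 (log2) for siRNA minus control, where IFIT5 was 11.7-fold higher and at 1.88. Of the 5 genes nearest to each member, 2 had a core match for IFIT1, 4 for IFIT2, 2 for IFIT3 and 0 for IFIT5, where 329 of the 9065 genes (3.63%) had one. A match in these letters does not show that a factor was bound.

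On chromosome 10, RefSeq places the family in the order IFIT2, IFIT3, IFIT1B, IFIT1 and IFIT5. IFIT1B, a paralogue in the middle of the cluster, had signals of 2.99, 2.95 and 2.88 on the control, vector and siRNA arrays, below the lower quartile of each array (3.72, 3.58 and 3.62). Among the 5 coding genes on either side, 5 passed the filter. Of these 5, only the death receptor gene FAS was past 2-fold, by 2.14 in vector and 1.55 in siRNA cells, and the lysosomal lipase gene LIPA, next to IFIT2, was at 0.27 and 0.33. In vector minus siRNA these 5 neighbours lay between -0.09 and 0.60, below the lowest IFIT gene at 1.67. This range depends on the filter. Among the neighbours left out as dim, KIF20B was at 1.78, above IFIT5, and SLC16A12 at -2.21. STAMBPL1, CH25H and HTR7, also dim, lay between -0.06 and 0.60.

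The cell identity was checked on marker genes. All 6 squamous epithelial markers measured, among them KRT5 and EPCAM, were above the upper quartile of every array, with KRT14 lower in vector than in control cells by 1.16 (log2). Of 5 leukocyte, 6 fibroblast and 5 endothelial markers measured, 0 were above the upper quartile on any array. Their summed linear signals were 93.8, 94.1 and 138 in control against 79.6, 81.3 and 111 in vector cells. In siRNA cells the sums were 76.3, 82.6 and 110. No marker list of another cell type was thus higher in vector than in control cells. Most of these markers were dim, and a contribution of other cells to the IFIT signals was not tested. The leukocyte gene PTPRC was at 2.74, 2.71 and 2.59.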

How the data were processed

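Deposited values were log2 probe set signals from 3 arrays, made by the authors with RMA, per the submitters' processing notes. The log2 scale was taken from the range of the values. For RMA, the version, settings and chip definition are not stated in the labels. It compresses differences near background, so folds of dim probe sets are understated. Labelling used a 3' IVT kit, per the labels' protocols.

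A gene was taken from a platform annotation table (44988 probe sets with 1 symbol, 1832 with several, 2473 not listed), updated through a RefSeq table, which changed 0 symbols, and its probe set of highest mean signal stood for it. Of 18132 genes, 10917 had a mean at or above the median probe set mean (5.28). Log2 differences between arrays were described against a 2-fold threshold, and no test was possible. Of 123 listed genes 111 were measured, and 5 of the other 12 are on probe sets with several symbols. Named genes were all IFIT probe sets, list members past 2-fold or else the 2 most different, and the 5 nearest profiles per IFIT gene. Other list members given in the text (MAVS, IRF3, the dim ligands, CMTR1, LIPA and the markers) were named after their values were seen. The members and lists were chosen with earlier results of these data known. The steps were tested on simulated arrays. Software was Python 3.11.15, pandas 2.3.3, numpy 2.4.6, matplotlib 3.10.9 and statsmodels 0.14.6.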

Additional observations from a re-analysis of the deposited data

How the results depend on the processing

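No paired analysis was possible because each group has 1 array. Alternatives were thresholds of 1.5-fold and 3-fold, no filter on dim genes, a stricter one at percentile 75 (7.44), the mean over probe sets, repeated quantile normalization, cyclic loess (span 0.4, 3 cycles), centring on the median, and leaving out probe sets ending in _x_at or _s_at. No result reversed. The stricter filter removed IFIT2 and IFIT5 and left 2 genes, so 2 were 2-fold higher for vector minus control and 2 for vector minus siRNA, with medians of 4.15 and 3.76, and 0 for siRNA minus control. The siRNA minus control count was 2 at 1.5-fold and 2 after centring. The vector minus siRNA median was 2.57 when probe sets were averaged and 2.40 without _x_at and _s_at probe sets, which removed IFIT3. In the other 39 of 48 alternative values for the counts and medians, the value stayed within 1.5 times (counts) or the spread between probe sets (medians). Over the alternatives run, vector minus control stayed at 3.43 to 3.72 for IFIT1, 2.59 to 3.50 for IFIT2, 4.71 to 4.95 for IFIT3 and 3.28 to 3.73 for IFIT5, and siRNA minus control for IFIT5 at 1.74 to 2.05. Repeated quantile normalization moved the median of all genes to -0.29 for vector minus control and changed the split of all genes past 2-fold from 1662 higher and 224 lower to 1444 and 518, and for siRNA minus control from 1623 and 202 to 1472 and 408. Among single genes and lists, 82 of 2100 alternative values moved further than this. Precision is limited by having 1 array per group.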

Other observations

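Several genes left out by the filter on dim signals were highest on the vector array, as IFIT1 was. RSAD2, which encodes the antiviral enzyme viperin, had a log2 signal of 2.73 in control cells, 8.54 with the vector and 3.24 with the siRNAs. IFI44L had 4.20, 7.76 and 3.68, and XAF1 had 3.83, 6.63 and 3.93. Without the filter, 26 of 34 listed effectors were 2-fold or more above control in vector cells, against 22 of 28 with it. TLR3, the endosomal sensor of double-stranded RNA, had 3.10, 5.42 and 4.47, so its siRNA signal lay between the others, as for IFIT5. The control signals of RSAD2 and TLR3 were under that array's lower quartile (3.72), and no fold is given.

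Close to the IFIT cluster, 2 dim genes differed between the arms in opposite directions. SLC16A12, which encodes a monocarboxylate transporter family member and follows IFIT5 in the RefSeq order, had 3.37 in control cells, 3.24 with the vector and 5.45 with the siRNAs. The mitotic kinesin gene KIF20B had 3.91, 6.37 and 4.59. Each rests on 1 array per group and was named after its values were seen.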
